A study of Drosophila melanogaster with 9 samples.

Results

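Messenger RNA of the Drosophila melanogaster fat body was compared between prepupae in which the transcription factor gene Mitf was read more than 100 times as often as in larvae, and larvae. The comparison holds 6 of the 9 libraries of the study, 3 of each kind, and 10139 of the 10242 genes in the files, kept because 3 or more of the 9 libraries reached a value of 1. The prepupae have titles with WP_LacZ, a stage label of white pupa, a genotype label of UAS-Mitf/+; Lsp2-GAL4/+, and value columns named WP-mitf-1 to WP-mitf-3. The larvae have titles and value columns with e3IL and LacZ, a stage label of the third instar and a genotype label of UAS-LacZ/+; Lsp2-GAL4/+. Title and column name of the prepupal libraries thus conflict. The other 3 prepupal libraries carry titles with WP_mitf, the same UAS-Mitf/+ genotype label and value columns named WP-LacZ. The 2 kinds of prepupal library are called prepupae titled LacZ and prepupae titled mitf here, and directions between them hold only for the libraries so labelled. Lsp2-GAL4 drives a transgene from a promoter of a larval serum protein gene that is known to be active in the fat body of late larvae, and its activity in these larvae was not tested. Each library came from 5 animals, from eggs kept for 21 h at 21 °C and animals then raised at 25 °C.

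Stage and Mitf level change together in this comparison and cannot be told apart in it. Prepupae titled mitf, which had Mitf at the larval level, are therefore given beside the main values where they bear on them. Both stage comparisons share the larval libraries.

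Mitf is the single fly member of the MiT/TFE family of helix-loop-helix transcription factors. The family is known for binding near genes of lysosomes, autophagy and the vacuolar proton pump (V-ATPase), and for being held in the cytoplasm by TOR kinase at the lysosome. The larval fat body takes up nutrients, stores fat, glycogen and serum proteins, and secretes much of what the blood carries. At the start of metamorphosis the steroid hormone ecdysone turns it to autophagy and remodelling.

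By the size of the smallest steps in the values, the 6 libraries held an estimated 19500000 to 29100000 reads. The summed normalised read counts were 17195757 to 18187221 in prepupae titled LacZ and 22604438 to 27178650 in larvae. The 10 most abundant genes took 19% to 19.5% of that sum in prepupae titled LacZ and 38.3% to 50.2% in larvae. Genes listed at 0 made up 1.97% to 2.47% of all genes in prepupae titled LacZ and 11.5% to 15.1% in larvae. The third larval library stood apart from the other 2 in its storage protein genes, with 29% of its sum in 6 of them against 42.6% and 39.5%. In bulk tissue, fewer cells of a type and less RNA per cell cannot be told apart.

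Mitf (chromosome 4, bases 1198852 to 1224467, plus strand of BDGP6) was read at 35204, 68535 and 45647 normalised counts in prepupae titled LacZ and at 378.2, 384.9 and 410.7 in larvae. The groups were far apart and the second prepupal library was the highest. The log2 difference was 6.93 ± 0.20 (SE, n = 3 each; limma, adjusted p = 1.25e-09). In prepupae titled mitf the mean was 375 ± 30.3 (SD, n = 3), and they differed from larvae by -0.06 ± 0.20 (limma, adjusted p = 0.808). Reads of the transgene and of the gene on chromosome 4 cannot be told apart in a gene-level value.

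Most of the transcriptome differed between prepupae titled LacZ and larvae. Of the 10139 genes tested, 7959 (78.5%) were called at an adjusted p under 0.05, 4699 higher (46.3%) and 3260 lower (32.2%). The 3 libraries of each group did not overlap for 8106 genes (79.9%), with prepupae above for 47% and below for 33%. Calls of at least 1, 2 and 3 on the log2 scale made up 40.1%, 28.3% and 17.6%, and calls of at most -1, -2 and -3 made up 23.8%, 13.1% and 6.12%. Calls with a log2 difference of at least 5 numbered 626 (6.17%), and calls of -5 or less numbered 90 (0.888%). The median log2 difference over all genes was 0.50, which scaling to library totals moved by 0.45 and a trimmed mean of M values by -0.25. The shares above are the background for every count below, so a list in which about 46.3% of genes rose and 32.2% fell is like the rest of the genes. Against prepupae titled mitf, 72.7% of genes were called (41.1% higher in prepupae titled LacZ, 31.6% lower). Prepupae titled mitf against larvae gave 66.4% (34.8% higher, 31.7% lower).

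**Figure D1:**
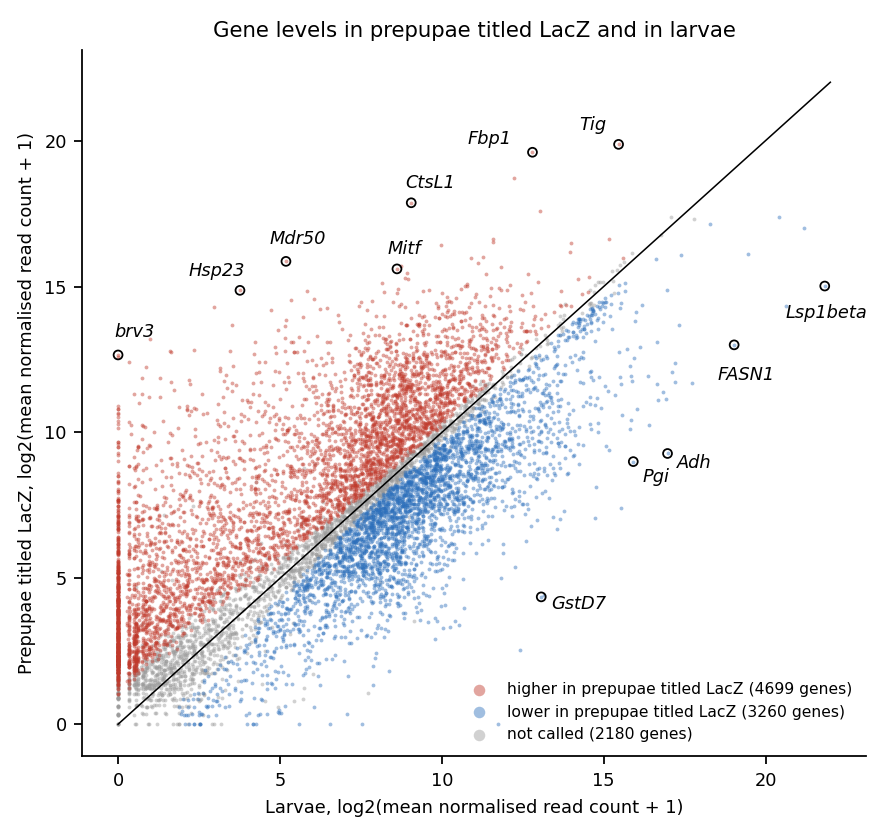
Mean level of each of the 10139 genes in prepupae titled LacZ (vertical axis) and in larvae (horizontal axis), both as log2(mean normalised read count + 1), over 3 libraries each. Red points were called higher in prepupae titled LacZ (4699 genes), blue points lower (3260) and grey points were not called; the line marks equal levels, and the 12 circled genes lie far from it.

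The 10 largest rises, among called genes with a mean of at least 1000 in the higher group and 10 in the lower and with a name other than a bare CG or CR number, included membrane transporters and heat shock genes. Irk3, an inwardly rectifying potassium channel, was read at 24475, 20732 and 25880 in prepupae titled LacZ and at 1.284, 1.156 and 116.7 in larvae. The third larval library stood far above the other 2, and the difference was 11.47 ± 1.27 on the log2 scale (limma, adjusted p = 1.65e-05), or 13.38 without that library. Mdr50, an ABC transporter of the P-glycoprotein family, was read at 57274, 65555 and 55808 in prepupae titled LacZ and at 49.9, 36.19 and 20.22 in larvae, a difference of 10.76 ± 0.29. NaPi-T, a member of the sodium-phosphate transporter family, averaged 13270 in prepupae titled LacZ and 10.4 in larvae. Klp3A, a kinesin of the anaphase spindle, was at 18873, 18861 and 18603 in prepupae titled LacZ and at 31.27, 25.74 and 18.76 in larvae, a rise of 9.51 ± 0.17. The circadian clock gene tim averaged 8691 in prepupae titled LacZ and 17.7 in larvae. These 5 genes shared a low level in prepupae titled mitf, with means of 0.677, 10.6, 37.2, 84.4 and 8.98, and each was higher in prepupae titled LacZ than in prepupae titled mitf, by 13.86 for Irk3, 12.35 for Mdr50, 9.67 for NaPi-T, 7.79 for Klp3A and 9.87 for tim.

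The rest of these 10 were also high in prepupae titled mitf, or copies of a repeated gene. Hsp23, a small heat shock protein gene, was at 25019, 39449 and 25283 in prepupae titled LacZ and at 15.79, 9.039 and 13.03 in larvae, while its mean in prepupae titled mitf was 234115. NimC2, of the Nimrod family of phagocytosis receptors, averaged 14829 in prepupae titled LacZ, 39744 in prepupae titled mitf and 35.6 in larvae. CtsL1, a cathepsin L protease of the lysosome, was at 228271, 251256 and 238935 in prepupae titled LacZ and at 419.7, 474.8 and 698.3 in larvae, a rise of 8.85 ± 0.17; its mean in prepupae titled mitf was 37108. Cyp304a1, a cytochrome P450, rose by 8.51 ± 0.20 and averaged 3056 in prepupae titled mitf. Hsp70Ab averaged 4911 in prepupae titled LacZ, 129 in prepupae titled mitf and 10.6 in larvae. Hsp70Ab has near-identical copies, so its share of the Hsp70 reads is uncertain.

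The 10 largest falls by the same rule included genes of detoxification, alcohol and sugar metabolism. Adh, alcohol dehydrogenase, was at 582.1, 673.7 and 603.6 in prepupae titled LacZ and at 155415, 106989 and 123094 in larvae, a difference of -7.68 ± 0.15 (limma, adjusted p = 1.96e-10). Aldh, which oxidises the aldehyde that Adh makes, fell by 8.12 on the log2 scale, to a mean of 169 in prepupae titled LacZ, against 47143 in larvae. Acbp2, an acyl-CoA binding protein, fell to 13.3, 15.1 and 32.6 in prepupae titled LacZ, against 9188, 7950 and 10075 in larvae. Akr1B, an aldo-keto reductase, fell by 7.66. Tret1-1, a trehalose transporter, was at 475.7, 74.02 and 285.4 in prepupae titled LacZ, where the second library was lowest, and at 26022 to 30020 in larvae. D2hgdh, which clears D-2-hydroxyglutarate, averaged 103 in prepupae titled LacZ and 11979 in larvae. GstD7 fell by 9.27, to 17.5, 2.65 and 38.6 in prepupae titled LacZ, against 9127, 7559 and 9125 in larvae, and it lies in a cluster of similar genes, so the split of reads between them is uncertain. Cyp6a23 fell by 6.88, with the same limit, since Cyp6a17 is close to it in sequence. Pgi and Lsp1beta complete the 10 and are described with their lists.

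Of the 10139 genes tested, 735 were listed at 0 in all 3 larval libraries and 34 in all 3 of prepupae titled LacZ. The 735 passed the filter through prepupal libraries alone, and the 34 through larvae or prepupae titled mitf. Both counts thus depend on the filter. Among the 735, the most abundant in prepupae titled LacZ were brv3, a channel of the TRP family, at 5833, 6776 and 6734, and FipoQ, at 5244, 7782 and 5283. The means of brv3 and FipoQ in prepupae titled mitf were 1.32 and 1.01. The trypsin gene iotaTry followed at 1406 to 1868, and Cln3, a lysosomal membrane protein whose human counterpart is mutated in Batten disease, at 1392 to 1538. Cyp12d1-d was at 952 to 1489, with its near-identical copy Cyp12d1-p at 664.3 to 1258 in prepupae titled LacZ and 307.7 to 387.8 in larvae, so the split between the copies is uncertain. In the other direction, Unc-115b, an actin-binding protein gene, was listed at 0 in prepupae titled LacZ and was at 3399, 3404 and 3416 in larvae, with a mean of 1558 in prepupae titled mitf. Its close copy Unc-115a was at 626.6 to 679.5 in prepupae titled LacZ and 1528 to 1818 in larvae, so this zero is uncertain too. Cyp6a17 (131.7 to 210.1 in larvae), p24-2 (77.3 to 104 in larvae) and the digestive protease gene Jon99Cii (16.1 to 20.9 in larvae) were the next, all with close copies. On the minus strand of 3R, p24-2 (bases 9687402 to 9692794) overlaps Unc-115b (bases 9687060 to 9692775), so their zeros come from a shared locus. The last, pre-mod(mdg4)-Y, was read in 1 larval library only, at 23.9, and was not called (log2 difference -1.55 ± 1.55; limma, adjusted p = 0.379).

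The 10 most abundant messages per kilobase of exon had 3 genes in common between the groups, Fbp2, mt:CoIII and Obp99b. In prepupae titled LacZ they were, in order, Fbp1, Cpr49Ac, Fbp2, mt:CoIII, Tig, CG34166, Obp99b, CtsL1, mt:CoI and CG15199, from 229440 down to 97363 normalised counts per kilobase. In larvae they were Lsp1beta, Lsp1gamma, Lsp1alpha, Lsp2, Obp99b, Fbp2, mt:CoIII, eEF1alpha1, IM33 and fon, from 1353960 down to 95641. Tig, the integrin ligand Tiggrin, was at 898538, 961591 and 1016065 normalised counts in prepupae titled LacZ and at 44359, 45313 and 45483 in larvae. Its mean in prepupae titled mitf was 4218, and it was higher in prepupae titled LacZ than there by 7.83 ± 0.14 (limma, adjusted p = 1.56e-10). Cpr49Ac, a cuticle protein gene, rose by 6.60 ± 0.29 and was at 429138, 454623 and 424453 in prepupae titled LacZ, against 6520, 5031 and 2752 in larvae. CG15199 rose by 5.07, while its mean in prepupae titled mitf was 4.22.

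The vacuolar proton pump acidifies lysosomes. It has a cytosolic V1 sector that splits ATP and a membrane V0 sector that carries protons. Of its 23 genes tested, 22 were higher in prepupae titled LacZ than in larvae and 1 was lower, with a median difference of 4.22 against 0.50 over all genes. All 10 V1 genes rose (median 4.72), as did 12 of 13 V0 and accessory genes (median 4.17). Their sum was 3.18%, 3.82% and 3.44% of the library in prepupae titled LacZ and 0.11%, 0.119% and 0.138% in larvae. In prepupae titled mitf, 13 of the 23 were higher than in larvae and 2 lower, with a median of 0.45. In the direct test between the prepupae, 21 were higher in those titled LacZ and 2 were lower.

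The most abundant subunits were already read in larvae and rose together. Vha16-1, the proteolipid of the V0 ring, was at 185608, 199781 and 202359 in prepupae titled LacZ and at 8190, 8551 and 8618 in larvae. Vha68-2, a catalytic A subunit, was at 88148, 119760 and 98751 in prepupae titled LacZ and at 2990, 3049 and 3246 in larvae. Vha55, the B subunit, was at 87870, 98151 and 97625 in prepupae titled LacZ and at 2931, 2927 and 3240 in larvae. In prepupae titled LacZ no value of these 3 genes came near a larval one. The genes for subunit a behaved unlike each other. Vha100-2 rose by 3.96 ± 0.15 to 14729, 21778 and 17543 in prepupae titled LacZ, against 1072, 1047 and 1334 in larvae, while its mean in prepupae titled mitf was 242. Vha100-1, at 2337, 1602 and 1977 in prepupae titled LacZ and 1625, 1498 and 1255 in larvae, overlapped between the groups and was called higher, by 0.43 ± 0.15 (limma, adjusted p = 0.0235). That call was lost without the first or the third prepupal library (0.29 and 0.41) or the third larval one (0.32), with totals without the 6 storage genes (0.35) and with the trimmed mean of M values (0.14). Vha100-1 was highest in prepupae titled mitf, with a mean of 4765. Vha100-4, at 94.17, 273 and 136.7 in prepupae titled LacZ, was read in 1 larval library only, at 2.773. Vha68-3, Vha16-5 and VhaAC39-2 were listed at 0 in every larval library and reached at most 153.7, 48.71 and 22.08 in prepupae titled LacZ. VhaM9.7-c was the 1 gene that fell, at 77.28, 98.91 and 78.09 in prepupae titled LacZ and 168.6, 218.8 and 208.1 in larvae.

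**Figure D2:**
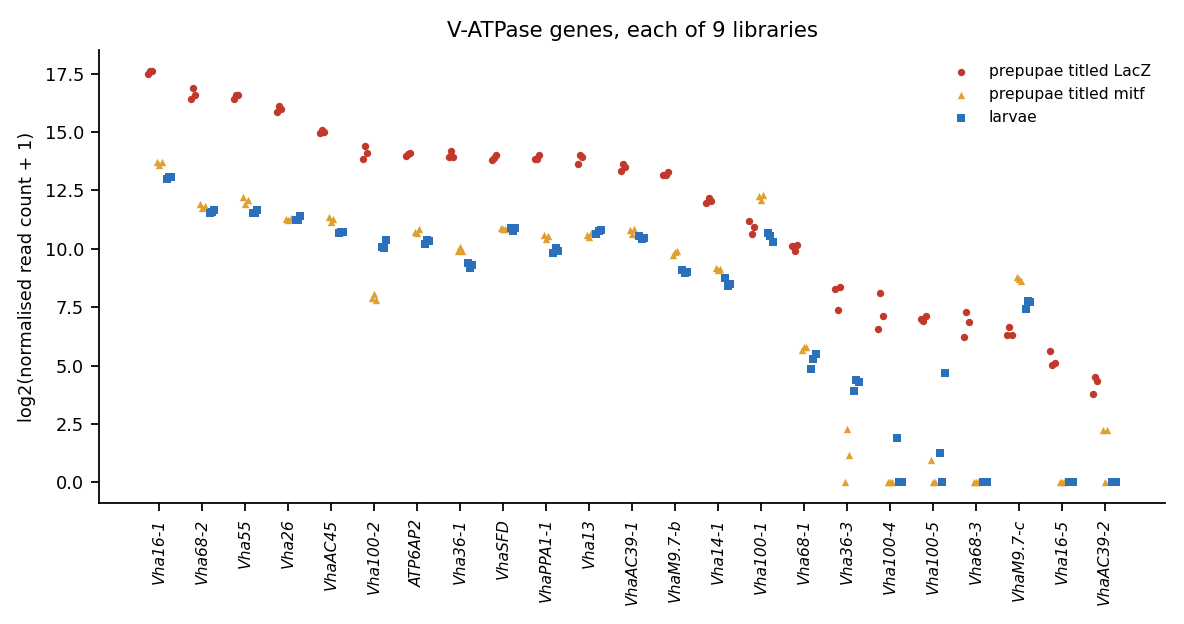
Level of the 23 V-ATPase genes as log2(normalised read count + 1), 1 point per library, in prepupae titled LacZ (red circles), prepupae titled mitf (yellow triangles) and larvae (blue squares), 3 libraries each; genes run from the highest to the lowest mean in prepupae titled LacZ. Red points lie above the blue for 22 genes by the test, with VhaM9.7-c below them and Vha100-1 overlapping them.

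Marker genes of the Malpighian tubule and gut, 2 epithelia rich in V-ATPase, were also mostly higher in prepupae titled LacZ. In prepupae titled LacZ, 13 of 19 tubule markers rose and 1 fell relative to larvae (14 and none with library totals), with summed values of 48098 to 52509 in prepupae titled LacZ and 4965 to 6004 in larvae. Of 20 gut markers, 13 rose and 3 fell, with sums of 8895 to 12045 in prepupae titled LacZ and 87.1 to 123 in larvae. Irk3, described above, was the largest part of the tubule sum. SecCl, a ligand-gated chloride channel, was at 1684, 2194 and 1896 in prepupae titled LacZ and at 0, 0 and 10.19 in larvae. The neuropeptide receptors CapaR (10.38, 10.61 and 5.228 in prepupae titled LacZ) and Lkr (3.989, 9.715 and 5.229) were near 0, as were the zinc transporter ZnT35C (4.784, 5.298 and 3.73) and the organic anion transporter Oatp58Dc (0, 3.303 and 6.814), all known for high levels in tubules. They were named after their values were seen. None of these 4 was called against larvae, although CapaR was called at 3.23 without the third larval library and Lkr was called under 6 alternatives, with differences from 0.62 with a pseudocount of 5 to 1.56 with library totals. The gut trypsin gene deltaTry was at 8183, 5291 and 7130 in prepupae titled LacZ and at 5.533, 0 and 0.777 in larvae; trypsins of its cluster are close copies, so the gene is uncertain. The part of tubule or gut RNA in the V-ATPase values was not tested.

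Lysosomal genes did not move as one. Of 36 enzymes and membrane proteins, 22 were higher in prepupae titled LacZ than in larvae and 11 lower, with a median of 1.23. The rises included the cathepsins CtsL1, CtsB (3.79 ± 0.32), CtsF (mean of 9903 in prepupae titled LacZ and 1154 in larvae) and cathD (1.89 ± 0.22). The sphingolipid activator precursor Sap-r rose to 42438, 26402 and 39766 in prepupae titled LacZ, against 8350, 7820 and 8080 in larvae. The lysosomal membrane proteins Cln7 (5.61 ± 0.14) and spin (3.56 ± 0.18) rose as well. The falls were led by tobi, an alpha-glucosidase, which was at 5.582, 7.947 and 12.69 in prepupae titled LacZ and at 1295, 1175 and 689.6 in larvae, and by DNaseII, the acid nuclease, at 53.41, 40.62 and 79.74 in prepupae titled LacZ and 3956, 3846 and 3687 in larvae. The acid phosphatase Acph-1 fell by 2.22 ± 0.12 and the mannosidase beta-Man by 2.66 ± 0.10. Prepupae titled mitf had 24 of the 36 genes higher than larvae and 7 lower. Between the prepupae, 9 were higher and 19 lower in those titled LacZ, with a median of -0.57; LManII, another mannosidase, averaged 3654 in prepupae titled LacZ, 72554 in prepupae titled mitf and 450 in larvae.

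In autophagosome formation, 18 of 26 genes were higher in prepupae titled LacZ than in larvae and 5 lower, with a median of 1.35. Prepupae titled mitf were much alike, with 19 of the 26 higher than in larvae and 2 lower (median 1.41). Steps of the pathway were split. Of the 2 conjugation systems, Atg7, the activating enzyme, rose to 4127, 3382 and 2830 in prepupae titled LacZ, against 124.6, 118.4 and 101 in larvae, and the ubiquitin-like Atg8a rose by 3.85 ± 0.22. The mean of Atg7 in prepupae titled mitf was 2142. Atg3, which hands Atg8a to its lipid, fell to 198.5, 160.7 and 144.6 in prepupae titled LacZ, against 736.2, 764.6 and 648 in larvae. Atg5 fell by 1.09 ± 0.14 and Atg10 by 1.24 ± 0.27. In the kinase complex, Atg1 (3.45 ± 0.23), Atg17 (2.17 ± 0.26) and Atg101 (2.05 ± 0.17) rose while Atg13 fell by 1.58 ± 0.19. In the lipid kinase complex, Atg14 rose to 4111, 5216 and 4787 in prepupae titled LacZ, against 214.7, 226.9 and 259.6 in larvae, Vps15 rose by 2.73 ± 0.20, and the catalytic Pi3K59F was not called (-0.20 ± 0.20). Atg3 differed most between the prepupae, with -4.19 for those titled LacZ minus those titled mitf, and the same difference was 4.07 for Atg14.

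In fusion with lysosomes and endosomal sorting, of 26 tethers, SNAREs and late endosome genes, 21 were higher in prepupae titled LacZ than in larvae and 4 lower (2 with library totals). Prepupae titled mitf had 18 of the 26 higher than larvae and 2 lower. The GTPase Rab7 of late endosomes was at 27088, 22809 and 24961 in prepupae titled LacZ and at 1403, 1438 and 1306 in larvae. Within the HOPS tether, dor (Vps18) rose by 4.18 ± 0.11, Vps39 by 1.79 ± 0.11, car (Vps33A) by 1.16 ± 0.12 and Vps16A by 0.74 ± 0.10. lt (Vps41) averaged 1038 in prepupae titled LacZ and 518 in larvae, which was called higher. Vps11 fell to 82.94, 96.25 and 61.99 in prepupae titled LacZ, against 180.1, 183.4 and 183.5 in larvae. Plekhm1, an adaptor of Rab7 and the tether, fell by 2.03 ± 0.14. Of 17 ESCRT genes 10 rose and 4 fell (11 and 2 with library totals), and the rises were largest for the upstream sorting pair Stam (4.37 ± 0.11) and Hrs (3.74 ± 0.14), while the ATPase Vps4 fell by 1.48 ± 0.10. Among 25 Rab genes 14 rose and 6 fell (17 and 3 with library totals); RabX4 was at 8477, 11577 and 9115 in prepupae titled LacZ and 37.38, 29.9 and 35.75 in larvae, and its mean in prepupae titled mitf was 105. Of the 25, 17 were higher and 4 lower in prepupae titled mitf than in larvae. Of the genes for clathrin, its adaptors and endocytosis, 12 of 25 rose and 7 fell, near the background; 16 were higher and 2 lower with library totals, and 8 were higher and 10 lower with a trimmed mean of M values. AP-1mu, a subunit of the AP-1 adaptor, rose by 3.80 ± 0.08 and AP-1sigma, of the same complex, fell by 1.66 ± 0.11.

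TOR kinase sits on lysosomes and senses amino acids through Rag GTPases and their partners. Of 34 genes in this list, 12 were higher in prepupae titled LacZ than in larvae and 19 lower, with a median of -0.58; with scaling to library totals, 15 were higher and 14 lower. RagA-B, 1 of the 2 Rag genes, rose to 4254, 2853 and 4049 in prepupae titled LacZ, against 340.5, 361.3 and 369.9 in larvae. RagC-D, its partner, fell to 413, 454.8 and 428.1 in prepupae titled LacZ, against 1023, 1013 and 983.9 in larvae. The kinase gene mTor fell by 1.03 ± 0.16 and raptor by 1.15 ± 0.15, while rictor, of the other TOR complex, rose by 3.19 ± 0.19. Of the Ragulator genes, Lamtor2 and Lamtor3 rose (1.40 ± 0.17 and 1.99 ± 0.11), and Lamtor1, Lamtor4 and Lamtor5 fell, by 1.39, 2.09 and 0.81, of which Lamtor5 was not called with library totals (-0.32). Thor, the translation inhibitor 4E-BP that TOR holds back, rose by 3.17 ± 0.19, and eIF4E1, the cap-binding factor it binds, fell to 627.8, 684.7 and 660.2 in prepupae titled LacZ, against 4961, 5272 and 5773 in larvae. In the insulin and FOXO list, 11 of 20 rose and 3 fell (15 and 1 with library totals); egr, the fly TNF, was at 8864, 9405 and 8293 in prepupae titled LacZ and 1027, 957.6 and 955.3 in larvae.

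**Figure D3:**
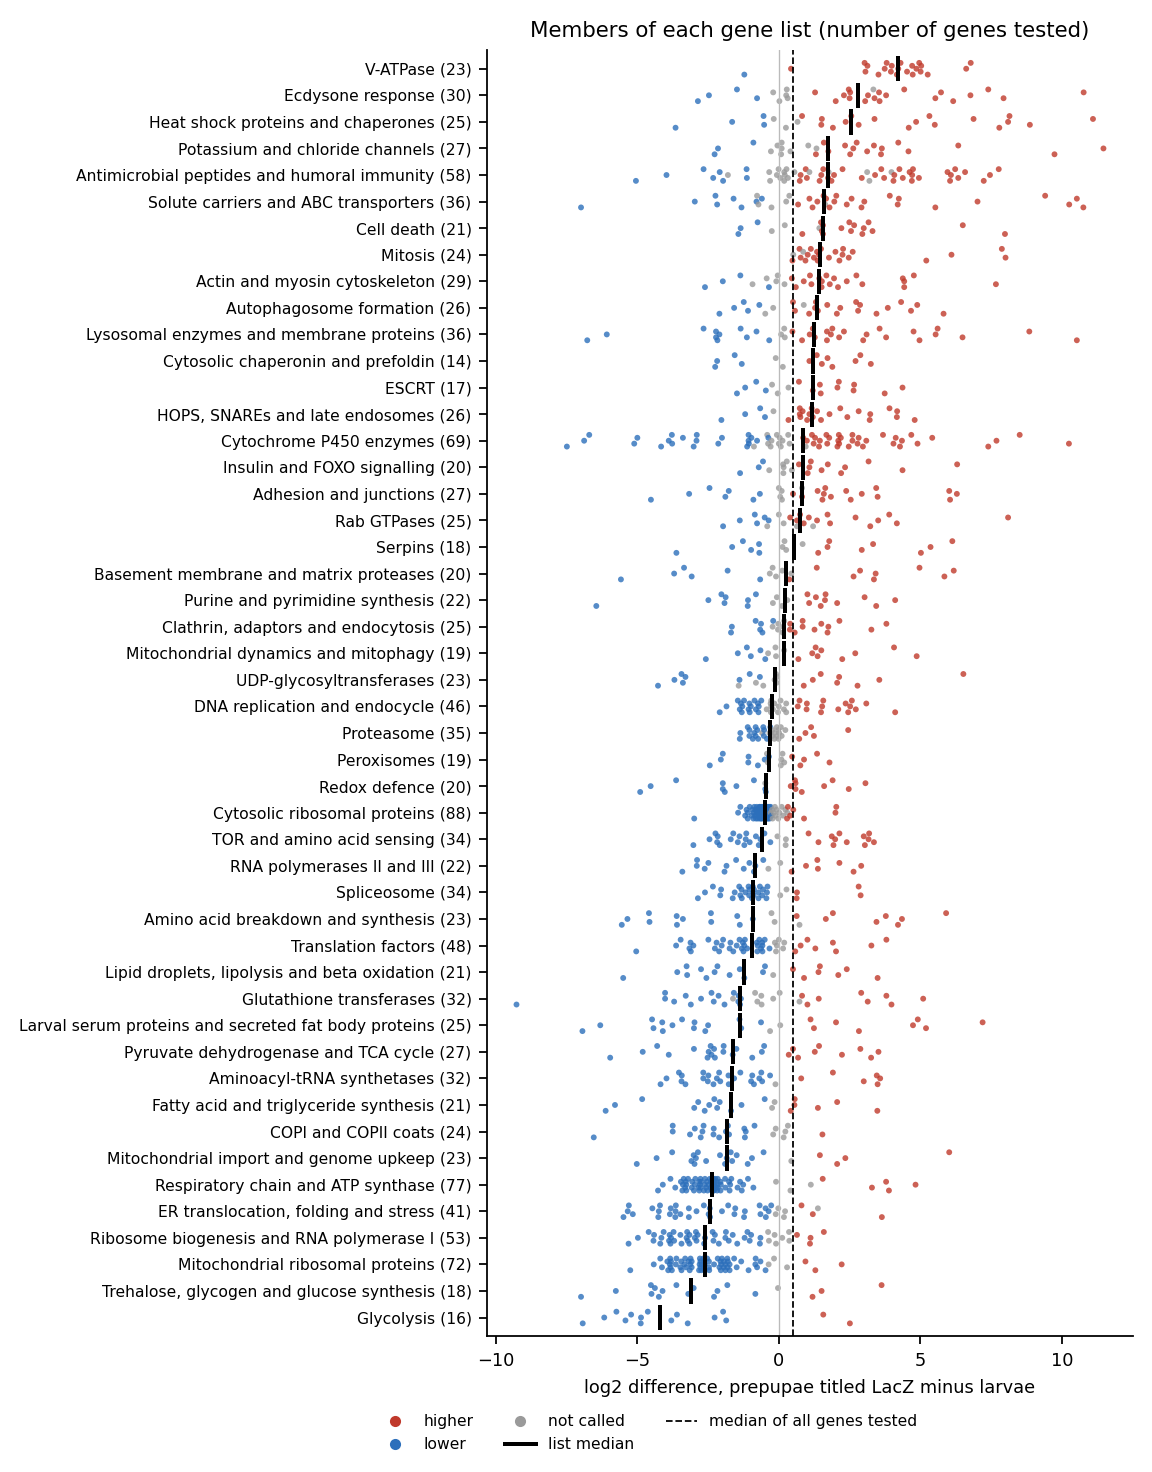
Log2 difference of every member of the pathway lists with at least 14 genes tested, prepupae titled LacZ minus larvae (horizontal axis), with lists ordered by their median. Red, blue and grey points are genes called higher, called lower and not called; black bars are list medians, from 4.22 for the V-ATPase to -4.21 for glycolysis, and the dashed line is the median of all genes, 0.50.

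Ecdysone acts through EcR and usp, which turn on early regulators and then genes of prepupal development. Of 30 genes in the list, 20 were higher in prepupae titled LacZ than in larvae and 4 lower, with a median of 2.78. The nuclear receptor gene Hr4 was at 2662, 2887 and 2133 in prepupae titled LacZ and 2.055, 0 and 0 in larvae, and Hr3 was at 415.1, 696.6 and 468.9 in prepupae titled LacZ and 3.561, 0 and 0.999 in larvae. Their means in prepupae titled mitf were 5401 and 1774. The early genes Eip78C (mean of 1366 in prepupae titled LacZ and 7.3 in larvae), Eip75B (2.52 ± 0.12) and br (2.50 ± 0.16) rose, Eip74EF was not called (0.31 ± 0.23; called at 0.53 without the first larval library and at 0.80 with library totals), and Eip93F was at 246.9, 66.03 and 183.1 in prepupae titled LacZ and 0, 0 and 1.369 in larvae. EcR rose by 2.01 ± 0.22 to 3465, 2566 and 3023 in prepupae titled LacZ, against 979.4, 753.4 and 550.3 in larvae, and its mean in prepupae titled mitf was 147. Its partner usp was not called (-0.20 ± 0.12) and was called at 0.29 with library totals and at -0.48 with the trimmed mean of M values. The mid-prepupal factor ftz-f1 fell to 35.84, 24.03 and 28.24 in prepupae titled LacZ, against 176.6, 150.1 and 169.5 in larvae. The enzyme gene Cyp18a1, which breaks ecdysone down, rose by 2.47 ± 0.41, and shd, which makes its active form, fell by 0.77 ± 0.28, a call that was lost without the second or the third prepupal library (-0.67 and -0.73), without the first or the second larval one (-0.64 and -0.76), and with scaling to library totals (-0.28). The juvenile hormone list had 6 of 13 higher and 5 lower, near the background, and 7 and 3 with library totals; Jhe, the juvenile hormone esterase, rose by 5.73 ± 0.69 and Jheh3, an epoxide hydrolase, fell by 4.28 ± 0.26.

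The products that define the larval fat body were mostly lower. Of 16 fat body markers, 2 rose and 12 fell, with a median of -2.78. In prepupae titled mitf 7 of the 16 were higher than in larvae and 8 lower, with a median of -0.56. Lsp1beta, a larval serum protein gene, was at 34335, 16650 and 48444 in prepupae titled LacZ and at 4101874, 3816897 and 3247336 in larvae, a difference of -6.94 ± 0.37 (limma, adjusted p = 7.11e-08). Lsp1alpha fell by 6.31 ± 0.29, and Lsp1gamma fell to 166660, 84717 and 139234 in prepupae titled LacZ, against 3125743, 2934351 and 1090495 in larvae. Lsp2, whose promoter drives GAL4 in these animals, was at 168539, 132146 and 214161 in prepupae titled LacZ and 1899455, 1334194 and 960083 in larvae, and its mean in prepupae titled mitf was 2419428. Fbp1, the receptor that takes serum proteins back up, went the other way, at 902556, 693948 and 788529 in prepupae titled LacZ and 10608, 9185 and 1597 in larvae. Fbp2 was not called (-0.31 ± 0.43), but was called at -0.86 without the third larval library. The 6 storage genes together made up 6.27% to 8.16% of the library in prepupae titled LacZ and 29% to 42.6% in larvae. In prepupae titled mitf their share was 41.4% to 42.8%, and Fbp1 averaged 6366620. The lipoprotein gene apolpp fell by 3.42 ± 0.27, and the clotting gene fon fell to 3431, 2401 and 4033 in prepupae titled LacZ, against 247788, 219736 and 185511 in larvae. The fat body factor srp rose by 0.74 ± 0.09 to 4856, 5036 and 4257 in prepupae titled LacZ, against 2852, 2955 and 2650 in larvae.

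Genes of sugar breakdown fell the furthest of any pathway list. Of 16 glycolysis genes, 14 fell and 2 rose, with a median of -4.21, and their sum was 0.345% to 0.38% of the library in prepupae titled LacZ and 2.19% to 3.03% in larvae. Prepupae titled mitf had 15 of the 16 lower than larvae and 1 higher (median -2.65). Pgi, which opens the pathway after hexokinase, was at 403.9, 575.3 and 554.6 in prepupae titled LacZ and at 57833, 60441 and 66950 in larvae, a fall of 6.93 ± 0.15. The glycerol phosphate shuttle gene Gpdh1 fell by 6.17, and its partner Gpo1 fell by 5.74. The middle enzymes were uneven, since Gapdh2 fell by 5.42 ± 0.10 and Eno by 1.86 ± 0.12. Pfrx, which sets the level of the activator fructose 2,6-bisphosphate, rose to 17329, 21602 and 20669 in prepupae titled LacZ, against 3510, 3459 and 3447 in larvae, and Ldh rose by 1.57 ± 0.41. In the list for trehalose, glycogen and glucose synthesis 14 of 18 fell and 3 rose; the pentose phosphate enzyme gene Taldo fell by 5.76 ± 0.13, and Pepck2 rose by 3.63 ± 0.19.

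Most genes of fat synthesis fell. Of 21 genes, 13 fell and 6 rose. The enzymes that make acyl chains fell, with FASN1 at 11139, 4514 and 8929 in prepupae titled LacZ and 538097, 504303 and 562340 in larvae, ACC at 2989, 1702 and 2139 in prepupae titled LacZ and 113883, 115711 and 141227 in larvae, and ATPCL, which supplies acetyl-CoA, at 5204, 5664 and 4970 in prepupae titled LacZ and 138416, 140914 and 173880 in larvae. The regulator SREBP fell by 2.28, and its escort SCAP fell by 2.62. Of the enzymes that add chains to glycerol, Agpat3 rose by 1.38 ± 0.09 and the phosphatase Lpin by 0.56 ± 0.10, while Agpat2 was not called (-0.24 ± 0.18; called at -0.52 with the trimmed mean of M values) and mdy, the main diacylglycerol acyltransferase, fell by 2.46 ± 0.22. FASN1, ATPCL and Agpat2 were all higher in prepupae titled LacZ than in prepupae titled mitf, by 3.66, 3.28 and 7.58. Of 21 lipid droplet, lipolysis and beta oxidation genes, 13 fell and 7 rose; Seipin, which shapes lipid droplets at the endoplasmic reticulum, rose to 6495, 10532 and 7350 in prepupae titled LacZ, against 614 to 762 in larvae.

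Nuclear genes for the respiratory chain mostly fell, while most genes on the mitochondrial genome were not called. Of 77 nuclear genes of the respiratory chain and ATP synthase, 69 fell, 5 rose and 3 were not called, with a median of -2.36. Complex I had 32 of 34 lower (median -2.30), complex II 4 of 5 (median -2.41), complex III with cytochrome c 11 of 12 (median -2.88), complex IV 11 of 14 (median -2.10) and ATP synthase 11 of 12 (median -3.24). Cyt-c-p, cytochrome c, was at 862, 499 and 846 in prepupae titled LacZ and at 10264, 12663 and 20089 in larvae, and ATPsynC, the rotor ring of ATP synthase, at 3330, 3176 and 4013 in prepupae titled LacZ and 51027, 57951 and 72901 in larvae. ND-B14 was the 1 abundant gene that rose, at 4449, 3829 and 4860 in prepupae titled LacZ and 1362, 1318 and 1820 in larvae. The other 4 that rose, COX7AL2, SdhBL, ND-B8 and ATPsynbetaL, were low, with means in prepupae titled LacZ of 34.7, 14.4, 19.3 and 17.7 and in larvae of 0.201, 0, 0.519 and 1.09, and COX7AL2, SdhBL and ATPsynbetaL are paralogs of the main subunits.

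Of the 12 mitochondrially encoded messages, 10 were not called and 2 were lower, with a median of -0.07 and a sum of 1.98% to 2.41% of the library in prepupae titled LacZ and 1.37% to 1.49% in larvae. mt:CoI was at 155869, 181387 and 169175 in prepupae titled LacZ and 159137, 140175 and 116147 in larvae, and mt:CoIII at 102086, 118936 and 109919 in prepupae titled LacZ and 118263, 117069 and 97777 in larvae, so the groups overlapped. mt:ATPase6 fell by 0.62 ± 0.20 (limma, adjusted p = 0.0168). With scaling to library totals 4 of the 12 were higher and none lower, with a median of 0.41, and the difference of mt:CoIII, -0.01 as reported, was called at 0.48. Without 1 library at a time, 0 to 3 of the 12 were lower, and mt:ATPase6 lost its call without the first prepupal library titled LacZ (-0.55) or the first larval one (-0.56), and with library totals (-0.13). In prepupae titled mitf the medians against larvae were -2.55 for the 77 nuclear genes and 0.05 for the 12 mitochondrial ones.

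**Figure D4:**
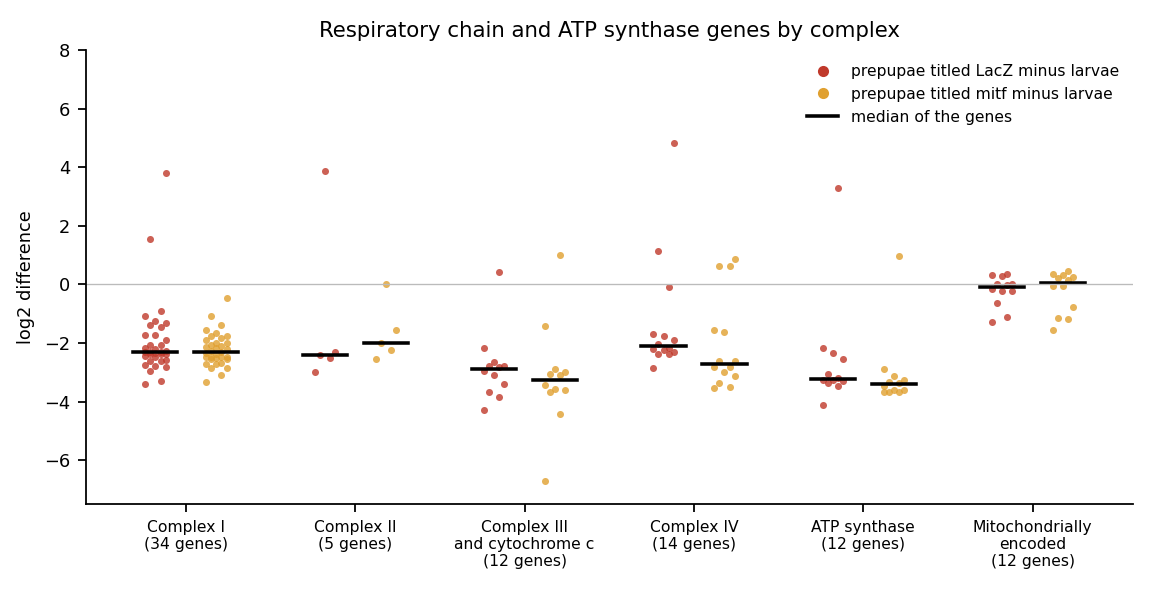
Log2 difference from larvae of each respiratory chain and ATP synthase gene, by complex and for the 12 genes on the mitochondrial genome, in prepupae titled LacZ (red) and in prepupae titled mitf (yellow); bars are medians. The medians of the nuclear complexes run from -2.10 to -3.24 in prepupae titled LacZ, and that of the mitochondrial genes is -0.07; both comparisons share the larval libraries.

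Other mitochondrial lists fell with exceptions. In the list of pyruvate dehydrogenase and the TCA cycle, 18 of 27 fell and 9 rose. Mpc1, a subunit of the pyruvate carrier, fell to 112, 96.1 and 175 in prepupae titled LacZ, against 6412, 7705 and 9465 in larvae, while Ogdh, of the 2-oxoglutarate dehydrogenase, rose to 28627, 28580 and 32417 in prepupae titled LacZ, against 3699, 3604 and 5000 in larvae. Of 23 import and genome upkeep genes 18 fell and 4 rose; the outer membrane pore Tom40 fell by 5.02 ± 0.22, and PolG2, the accessory subunit of the mitochondrial DNA polymerase, rose by 2.06 ± 0.21. Mitochondrial ribosomal proteins fell in 66 of 72 cases (median -2.62), with mRpL14 at 8.61, 15.6 and 21.2 in prepupae titled LacZ and 549, 517 and 682 in larvae. Of the 3 that rose, mRpS25 was at 1283, 1336 and 1315 in prepupae titled LacZ and 210 to 375 in larvae. Prepupae titled mitf had 70 of these 72 genes lower than larvae (median -2.28). BNIP3, a mitophagy receptor, rose to 11175, 7346 and 8057 in prepupae titled LacZ, against 370, 322 and 221 in larvae; its list as a whole had 9 of 19 higher and 6 lower.

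Genes that build ribosomes and charge tRNAs fell as well. Of 53 ribosome biogenesis and RNA polymerase I genes 42 fell and 4 rose (7 with library totals), with a median of -2.61; NHP2, of the H/ACA snoRNPs, was at 17.3, 28.8 and 27.9 in prepupae titled LacZ and 820, 857 and 1385 in larvae. Prepupae titled mitf had 51 of the 53 lower than larvae and none higher (median -3.07). Of 17 cytosolic aminoacyl-tRNA synthetases 16 fell and 1 was not called (median -2.19), among them SerRS (-4.18 ± 0.14) and LeuRS (-3.97 ± 0.11). The 15 mitochondrial synthetases were split, with 6 higher and 9 lower; PheRS-m was at 8706, 7927 and 9804 in prepupae titled LacZ and 666, 751 and 786 in larvae, and TyrRS-m rose by 3.49 ± 0.11. All 15 were lower in prepupae titled mitf than in larvae. The cytosolic ribosomal proteins themselves moved little: 68 of 88 fell and 7 rose, with a median of -0.50, and their sum was 7.07% to 8.04% of the library in prepupae titled LacZ and 6.60% to 8.44% in larvae. With scaling to library totals, 16 of the 88 were higher, 18 lower and the median was -0.01, and with the trimmed mean of M values 3 were higher, 75 lower and the median was -0.78. The number higher was 4 without the first or the third library of prepupae titled LacZ or the second larval library. Of 48 translation factors, 34 fell and 8 rose (24 and 13 with library totals). eEF1delta fell by 5.04 ± 0.13, and the exchange factor subunit eIF2Bepsilon rose to 8919, 7230 and 9282 in prepupae titled LacZ, against 618, 576 and 617 in larvae.

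The chaperonin CCT folds actin and tubulin, and prefoldin hands them to it. Of the 8 CCT genes 7 rose and 1, CCT4, fell, with a median of 1.81; CCT8 was at 12782, 16722 and 14219 in prepupae titled LacZ and 1341, 1462 and 1798 in larvae. All 8 were lower in prepupae titled mitf than in larvae (median -1.53), and all 8 were higher in prepupae titled LacZ than in prepupae titled mitf (median 3.48). Of 6 prefoldin genes 1 rose, 3 fell and 2 were not called (2 higher and 3 lower with library totals), and Pfdn2 fell by 2.25 on the log2 scale. The difference between CCT and prefoldin was not tested. Heat shock genes rose in 18 of 25 cases and fell in 4 (2 with library totals). All 7 small heat shock protein genes rose, with Hsp26 at 3713, 8430 and 4216 in prepupae titled LacZ and 24.89, 21.15 and 20.19 in larvae, the second prepupal library being highest. Of these 7, 6 were also higher in prepupae titled mitf than in larvae. The endoplasmic reticulum chaperone Hsc70-3 (BiP) fell by 3.65 ± 0.28.

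The secretory path was lower from the ribosome receptor to the Golgi coats. Of 41 genes for translocation into the endoplasmic reticulum, folding and stress, 33 fell and 3 rose (7 with library totals), with a median of -2.43. Pdi, the protein disulfide isomerase, was at 3994, 2630 and 3650 in prepupae titled LacZ and 166147, 153993 and 135520 in larvae. The 11 genes of the signal recognition particle, its receptor and the Sec61 pore had 10 lower (median -2.91); SrpRalpha, the receptor, fell by 5.34 ± 0.11. Srp54, the GTPase of the particle, alone rose, at 7015, 4518 and 6385 in prepupae titled LacZ and 470, 441 and 502 in larvae. Of 24 COPI, COPII and p24 cargo genes 18 fell and 1 rose (5 with library totals), Sec24AB by 1.54 ± 0.11; loj and p24-1 both fell by 3.75.

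Of 20 basement membrane and matrix protease genes 9 rose and 6 fell, and of 27 adhesion and junction genes 15 rose and 7 fell, both near the background. The collagen IV gene vkg fell by 5.58, and its partner Col4a1 was at 15255, 7640 and 16459 in prepupae titled LacZ and 126912, 160002 and 208472 in larvae. The matrix metalloproteases Mmp1 and Mmp2, which free fat body cells from one another at metamorphosis, rose by 6.18 ± 0.23 and 5.85 ± 0.39. Mmp1 was at 2684, 1900 and 2188 in prepupae titled LacZ and 21.4, 28.9 and 42.8 in larvae, with a mean of 9597 in prepupae titled mitf. The alpha integrins parted: scb rose to 30993, 26352 and 26776 in prepupae titled LacZ, against 206, 371 and 592 in larvae, and if fell by 3.17 ± 0.15. Of 29 actin and myosin genes 20 rose and 4 fell, but actins and tubulins have near-identical copies. The tubulin gene betaTub56D fell, at 2229, 2010 and 2129 in prepupae titled LacZ and 22766, 23161 and 21620 in larvae.

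Mitosis genes rose. Of 24, 22 rose and none fell, with a median of 1.45, and in prepupae titled mitf 22 were higher than in larvae as well. The kinetochore gene Ndc80 was at 2369, 1314 and 2400 in prepupae titled LacZ and 2.771, 11.22 and 8.552 in larvae, and the centromeric histone gene cid at 443.7, 512 and 450.3 in prepupae titled LacZ and 1.382, 0 and 2.329 in larvae. The phosphatase twe rose by 6.10 ± 0.32 and CycB3 by 5.21 ± 0.32. Ndc80, cid, twe and CycB3 were higher in prepupae titled LacZ than in prepupae titled mitf, by 5.94, 6.27, 5.35 and 3.07. CycA, Cdk1 and polo, at 128.6, 48.62 and 124.6 in the first library of prepupae titled LacZ, rose by 1.77, 1.49 and 1.13. Of 46 DNA replication and endocycle genes 15 rose and 18 fell (19 rose and 9 fell with scaling to library totals); RfC38, of the clamp loader, rose by 4.11 ± 0.22 and Cdk2 fell by 1.85 ± 0.29. In the list of purine and pyrimidine synthesis 10 of 22 rose and 8 fell; the 10 genes of purine synthesis in it had 7 higher and none lower. Gart, an enzyme of several of its steps, was at 33306, 30443 and 30355 in prepupae titled LacZ and 2402, 2937 and 3377 in larvae.

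Cell death and immune genes were mostly higher. Of 21 cell death genes 15 rose and 3 fell. The apoptosome gene Dark was at 5957, 6288 and 4980 in prepupae titled LacZ and 65.16, 58.66 and 62.22 in larvae. Its caspase Dronc rose by 2.95 ± 0.46 and the death gene hid by 2.66 ± 0.25, while rpr, another, was called only without the second prepupal (1.98) or the third larval library (2.01) or with library totals (1.67), at 6.385, 0.8846 and 3.726 in prepupae titled LacZ and 0, 0 and 2.333 in larvae. The inhibitors Diap1 (1.56 ± 0.09) and Bruce (3.00 ± 0.11) rose too. Of 58 genes of humoral immunity 33 rose and 8 fell. Among 24 antimicrobial peptide and Bomanin genes 18 rose, none fell, and the spread between replicates was wide: the attacin gene AttB was at 224.6, 84.09 and 2195 in prepupae titled LacZ and 1.385, 0 and 71.88 in larvae, and it shares much of its sequence with a neighbouring copy. The 24 genes summed to 3443 to 11246 in prepupae titled LacZ, 50580 to 88574 in prepupae titled mitf and 555 to 951 in larvae. In prepupae titled mitf 12 of the 24 were higher than in larvae and 1 lower. Between the prepupae, 9 were higher and 5 lower in those titled LacZ. Drs, drosomycin, was at 1194, 639.6 and 681.5 in prepupae titled LacZ and 12.37, 7.401 and 13.93 in larvae, with a mean of 40410 in prepupae titled mitf. PGRP-LD, of the peptidoglycan recognition family, rose by 7.77 ± 0.27 and averaged 60 in prepupae titled mitf. IM33 fell by 5.05, and the thioester protein gene Tep1 fell by 3.97.

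Of 69 cytochrome P450 genes 34 rose and 22 fell, near the background, with differences from -7.49 to 10.25. Of 32 glutathione transferases 8 rose and 16 fell, and their median was -1.36. Without the first or the third library of prepupae titled LacZ 5 were higher, and without the second the median of Glutathione transferases was -0.68. GstE9 rose by 1.41 ± 0.27. UDP-glycosyltransferases had 8 of 23 higher and 8 lower. Redox defence had 9 of 20 higher and 10 lower, and 9 and 8 with scaling to library totals. The ferritin light chain Fer2LCH was at 33275, 26557 and 31333 in prepupae titled LacZ and 3709, 3632 and 3571 in larvae, while the peroxiredoxin gene Prx2 fell by 4.90 and Prx3 fell by 4.53. Of 36 solute carriers and ABC transporters 22 rose and 8 fell (5 with library totals); bw, a pigment precursor transporter subunit, was at 2682, 4720 and 3698 in prepupae titled LacZ and 1.44, 1.29 and 1.61 in larvae.

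The proteasome, spliceosome and RNA polymerases showed smaller shifts. Of 35 proteasome genes 5 rose, 16 fell and 14 were not called (median -0.30); scaling to library totals turned this to 13 higher and 8 lower (median 0.19), and 8 were higher without the second library of prepupae titled LacZ. In prepupae titled mitf 33 of the 35 were higher than in larvae, and 32 of the 35 were lower in prepupae titled LacZ than there. Rpn11, the deubiquitinase of the lid, was at 735, 498 and 645 in prepupae titled LacZ and 1612, 1608 and 1541 in larvae, with a mean of 4209 in prepupae titled mitf. Of 34 spliceosome genes 28 fell and 4 rose (19 fell and 6 rose with scaling to library totals), with snRNP-U1-C higher by 2.89 ± 0.11 while SmF fell by 2.86. RNA polymerases II and III had 13 of 22 lower and 7 higher.

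Summed levels of several other tissues' markers were higher in prepupae titled LacZ than in larvae. Epidermis and cuticle genes rose in 27 of 54 cases, near the background share of rises, and fell in 6 (in 3 without the first or second library of prepupae titled LacZ). Of the 54, 29 averaged under 10 in both groups. The sum of the list, 425785 to 455875 in prepupae titled LacZ and 3963 to 6837 in larvae, was mostly Cpr49Ac. Of 14 hemocyte markers 9 rose and 4 fell, with sums of 16001 to 20629 in prepupae titled LacZ and 2024 to 3742 in larvae; NimC2 made up most of the first, and the defining marker Hml was not called, at 111.7, 109.5 and 112.9 in prepupae titled LacZ and 66.56, 312.1 and 101.9 in larvae. Muscle markers fell in 8 of 17 cases and rose in 3, with the giant sarcomere gene sls at 5962, 5092 and 5310 in prepupae titled LacZ and 46.4 to 167 in larvae. Act57B fell by 2.61 and Prm by 2.60. The muscle sums were 6857 to 7908 in prepupae titled LacZ, mostly from sls, and 3556 to 3970 in larvae. Imaginal disc genes had 5 of 15 higher and 2 lower (8 and 1 with library totals), neuron markers 5 of 7 higher, ring gland markers 4 of 7 higher, gonad markers 4 of 8 higher (7 with library totals) and oenocyte markers 1 of 4 higher and 1 lower. The share higher was below the background for disc genes and near it for gonad genes. Of the 15 disc genes, 7 averaged under 10 in both groups. The neuron sums overlapped, at 2123 to 3272 in prepupae titled LacZ and 2143 to 3401 in larvae. The oenocyte sums were lower in prepupae titled LacZ (17.2 to 59.2) than in larvae (120 to 525). Most of each sum was PPO1, which is also in the hemocyte list and was the 1 oenocyte marker called lower. PPO1 was at 22.33, 37.97 and 11.95 in prepupae titled LacZ and at 169, 521.3 and 108.8 in larvae. The lower sums are thus those of this gene. Of the salivary gland factors, sage rose to 437.7, 223.1 and 447.5 in prepupae titled LacZ, against 11.38, 3.413 and 2.129 in larvae, and fkh was not called. In prepupae titled mitf the sums were 42842 to 45081 for hemocyte, 19378 to 20744 for neuron and 996 to 1060 for gonad markers. Each lay above its range in prepupae titled LacZ, which for gonad markers was 449 to 533. Oenocyte sums (179 to 260) did so too. Sums of cuticle (175298 to 244815), muscle (1115 to 1449), disc (2352 to 2642) and salivary gland genes (4.45 to 48.5) lay below, and ring gland sums overlapped. The part of these tissues in the gene lists above was not tested.

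Calls also varied with the length and level of the gene. In the quintile of genes with the shortest exon length (123 to 1120 bases), 35% were higher in prepupae titled LacZ and 40.8% lower, with a median of -0.11. In the quintile with the longest (3999 bases and more) 57.7% were higher and 21.9% lower, with a median of 1.06. The trend was also present among genes above the middle of the mean levels, where the medians of the shortest and longest quintiles were -0.67 and 0.73. In prepupae titled mitf the medians against larvae were -0.11 for the shortest quintile and 0.47 for the longest. In the quintile of genes with the lowest mean level over all 9 libraries, 56.4% were higher and 5.82% lower. A gene this low could pass the filter through the 3 libraries of 1 group alone, and larvae listed more genes at 0. These 2 shares can therefore not be read apart from the filter. With a minimum value of 10 in 3 libraries, the median over the 8599 genes kept was 0.29. By chromosome, 50.4% of 1688 genes on X were higher and 28.6% lower, and 27.3% of 77 genes on chromosome 4, which holds Mitf, were higher and 48.1% lower, while the arms of chromosomes 2 and 3 had 45.4% to 46.1% higher. The part of gene length in the list values was not tested.

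**Figure D5:**
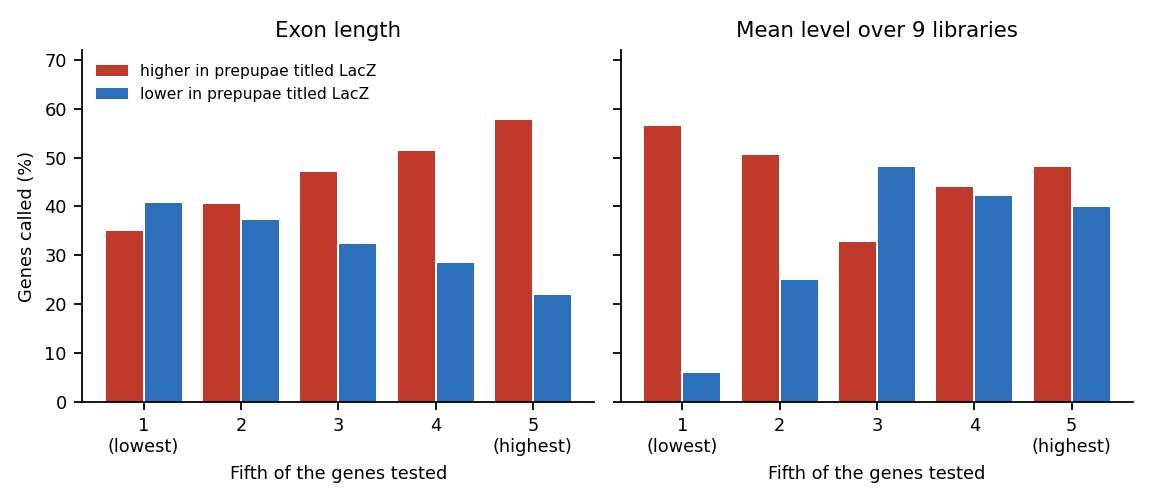
Share of genes called higher (red) and lower (blue) in prepupae titled LacZ than in larvae, in quintiles of the 10139 genes by exon length (left) and by mean level over the 9 libraries (right). The share called higher runs from 35% for the shortest genes to 57.7% for the longest, and the share called lower from 40.8% to 21.9%.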

How the data were processed

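Poly(A) RNA of fat bodies was sequenced with a stranded library kit, per the labels' protocols. Per the submitters' processing notes, bcl2fastq, Salmon 1.5.2 and DESeq2 were used with the genome build BDGP6. The deposited signal is 1 normalised read count per gene and library; the median ratio of a library to the geometric mean of each gene was 0.9926 in all 9, over the 7791 genes above 0 throughout. Depth was estimated from the value that makes most low values whole multiples of 1 read; 70.3% to 76% of values up to 10 reads were whole within 0.05 in the 6 libraries compared, so reads were not recovered gene by gene, and no count test was run.

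Genes entered with a value of 1 or more in 3 or more libraries. limma 3.58.1 (R 4.3.3) was fitted with a mean-variance trend to log2(value + 1) of all 9 libraries, 1 coefficient per group; fold changes on this scale understate those of low genes. P-values were two-sided and adjusted by the Benjamini-Hochberg method over 10139 genes; calls needed an adjusted p below 0.05. Nothing says that replicates came from separate cultures, so p-values measure the spread between these libraries. Symbols and positions came from an Ensembl annotation of BDGP6 for 10189 of 10242 identifiers. The fit was tested on simulated data.

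The comparison, the gene lists and the subgroups were chosen with earlier results of these data known. Named genes were, besides Mitf, the 10 largest rises and falls among called genes without overlap between groups (higher mean at least 1000, lower at least 10, no bare CG or CR number). Further ones were the 5 most abundant genes each way listed at 0 in the other group and the 10 most abundant per kilobase of exon. From each list the 2 largest rises and falls with a mean of at least 100 were selected, but not all of these are described. Atg18b, Syx13, Corp, DptA, sNPF-R and Cth are among those left out. Other genes were named after their values were seen, to spell out complexes, defining markers and exceptions. Alternatives were pseudocounts of 0.1 and 5, no filter or a minimum of 10, scaling by library totals, by totals without 6 storage genes and by a trimmed mean of M values (30% and 5% trimmed), only the 2 groups compared, no variance trend, a replicate block, and each library left out in turn. No genome sequence was used here, so no sequences are shown.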

Additional observations from a re-analysis of the deposited data

How the results depend on the processing

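The numbers of genes called held within 1.5 times under all 19 alternatives. For genes higher in prepupae titled LacZ than in larvae (4699) they ran from 3980 with a minimum value of 10 to 5501 with library totals, and for genes lower (3260) from 2470 with library totals to 3663 with the trimmed mean of M values. Leaving out 1 library gave 4495 to 4691 higher and 3133 to 3239 lower. Against prepupae titled mitf, genes higher (4166) ran from 3581 to 4939 and genes lower (3200) from 2334 to 3718. The Mitf difference of 6.93 ran from 6.65 to 7.42. Library totals moved the median of all genes by 0.45 and the share of calls that were higher to 69%, against 59%; the trimmed mean moved the median by -0.25 and the share to 53.9%, and a pseudocount of 5 moved the median by -0.14. Of 243 list counts and medians, 91 moved by more than 1.5 times (counts) or the spread between replicates (medians) with library totals and 45 with the trimmed mean. Medians of the peroxisome, redox defence, UDP-glycosyltransferase, DNA replication, proteasome and mitochondrially encoded lists turned positive with library totals, and mt:CoIII, -0.01 as reported, reached 0.48 and usp, -0.20 as reported, reached 0.29; the cause was not tested. Those of the clathrin, basement membrane, mitophagy and nucleotide synthesis lists turned negative with the trimmed mean.

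Same-numbered libraries of prepupae titled LacZ and larvae deviated together only weakly, with correlations of 0.0264, 0.0198 and 0.0536. Those between different numbers were lower, from -0.0322 to 0.00518. The numbers are not known to pair libraries and were not taken as pairs. With a replicate block 4675 genes were higher and 3232 lower, and the Mitf difference was 6.93.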
